A study of Mus musculus with 8 samples.

Results

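Nitric oxide is made from arginine by 3 synthases, and how much each makes is set by cofactors, by an endogenous inhibitor and by where the enzyme sits in the cell. The 7 genes described here are the synthases Nos1, Nos2 and Nos3, the hydrolases Ddah1 and Ddah2, and the caveolins Cav1 and Cav3. They were taken by name as rows of the deposited gene tables, 7 of 24848 genes, by a rule that uses no measured value. RNA sequencing had been done on ischemic tibialis anterior, a muscle at the front of the lower leg, from male Leprdb/db animals, whose leptin receptor is defective and which become obese and diabetic. The tested libraries (n = 4) came from mice on a diet with 75 ppm praliciguat, a stimulator of soluble guanylate cyclase, set to reach the peak plasma level of 10 mg/kg/day by mouth. The libraries set against them (n = 4) came from mice on a control diet without the drug, labelled placebo. All the mice carried the Leprdb/db genotype and had hind limb ischemia surgery. The diets began on day -3 and were kept for 31 days, and muscle was taken on day 28. No lean or unoperated muscle is among these libraries, so the values say nothing of what diabetes or ischemia does to these genes. Whether every library stands for its own mouse is not in the labels, and the p-values therefore measure the spread between libraries.

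In skeletal muscle, the neuronal synthase Nos1 is held under the fibre membrane by the dystrophin complex. The endothelial synthase Nos3 makes the nitric oxide that relaxes vessels, and the inducible synthase Nos2 is best known from activated macrophages. Asymmetric dimethylarginine (ADMA) is released from methylated proteins and inhibits the synthases. The enzymes Ddah1 and Ddah2 are known as ADMA hydrolases, although direct hydrolysis by Ddah2 is disputed. Caveolin-1 binds and restrains the endothelial synthase in the membrane pits called caveolae, and caveolin-3 is the caveolin of muscle fibres. Nitric oxide activates soluble guanylate cyclase, the enzyme that praliciguat stimulates, so these genes stand upstream of the drug's target.

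Total expected counts (RSEM's estimated reads) were 27271020 to 31896205 per praliciguat library and 21099764 to 29635817 per placebo library. Fast fibre markers, 10 genes such as Myh4 and Actn3, summed to 166739 to 198489 TPM with praliciguat and 164495 to 183179 TPM in placebo, so the defining genes of the labelled tissue were abundant. TPM scales transcripts to a fixed total and is a level per length. Of 13569 genes tested, edgeR's quasi-likelihood test, with a threshold of 0.05 on p adjusted by Benjamini-Hochberg over all genes, called 0 higher and 0 lower, with 265 higher and 513 lower at an unadjusted p under 0.05. DESeq2, run as an alternative, called 15 higher and 114 lower. Slow fibre markers, 8 genes, summed to 447 to 707 TPM with praliciguat and 1330 to 3241 TPM in placebo, with 8 of 8 below 0 on the log2 fold change scale and 7 called lower by DESeq2. Of the 10 fast fibre markers, 8 lay above 0 and 2 below (median log2 fold change 0.08). The 2 below 0 were Myh2, the myosin of fast oxidative fibres, and Myh1. Myh2 had a log2 fold change of -1.56 ± 0.22 and was the 1 of 10 called by DESeq2. Myh1 had -0.46 ± 0.20. By the number in its title, a library belongs to a lower run or to an upper one, with 2 libraries of either group in each. The labels do not explain these numbers.

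All 7 genes were detected in every library and passed the count filter. By TPM, Cav1 was the most abundant, at 193 to 331 TPM over the 8 libraries, then Cav3 at 74.7 to 112 TPM and Nos1 at 20.8 to 39.4 TPM. Each of these 3 stood above the next gene in the order in 8 of 8 libraries. Ddah2, at 6.12 to 20.5 TPM, lay above Nos3, at 6.21 to 12.8 TPM, in 6 of 8 libraries, and Nos3 lay above Ddah1, at 3.65 to 13.4 TPM, in 5 of 8. Nos2 was the lowest by mean level, at 2.53 to 4.60 TPM, and Ddah1 lay above it in 6 of 8 libraries. The last 4 genes thus overlapped in level with their neighbours in the order.

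None of the 7 genes passed edgeR's test over all genes, where the share called was 0% in either direction. Nos3 and Ddah1, 2 of the 7, had an unadjusted p under 0.05, as had 265 genes higher and 513 lower of the 13569 tested. Nos3 lay lower and Ddah1 higher with praliciguat, both without passing, and Nos1, Nos2, Ddah2, Cav1 and Cav3 had intervals that span 0. DESeq2 called 1 of the 7 lower, Nos3, and 0 higher, where it called 0.842% of all genes lower and 0.111% higher. Of the 7 genes, Nos3 was also the 1 whose groups did not overlap, where 2.54% of all genes did not overlap and were lower and 1.32% were higher. The median log2 fold change of the 7 was 0.03, against 0.02 over all genes tested.

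**Figure D1:**
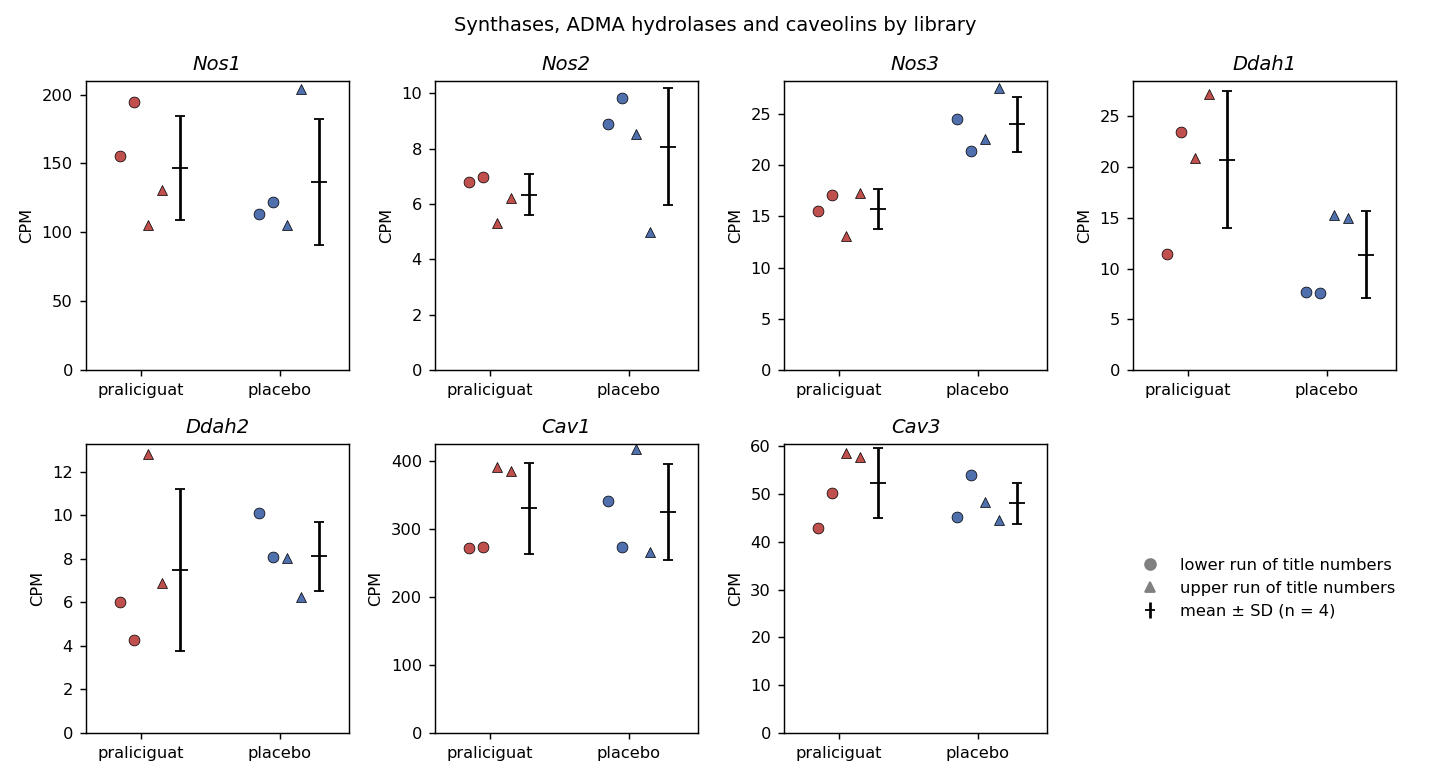
Scaled counts (CPM) of each gene in the 4 praliciguat and 4 placebo libraries, with symbols for the run of title numbers and bars for the mean ± SD. The Nos3 values of the praliciguat libraries, 13.1 to 17.2 CPM, all sit below those of the placebo libraries, 21.4 to 27.5 CPM, and the groups overlap in the other panels.

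Nos3, on chromosome 5 from 24364816 to 24384474 (plus strand; RefSeq coordinates on GRCm38, the assembly of mm10, here and below), was read at 15.5, 17.1, 13.1 and 17.2 CPM in praliciguat libraries 1 to 4, against 24.5, 21.4, 22.6 and 27.5 CPM in placebo libraries 1 to 4. CPM is the read count relative to the TMM-scaled library size. Every praliciguat library lay below every placebo library. The level was 1.53-fold lower with praliciguat, a log2 fold change of -0.61 ± 0.12 (SE; 95% interval -0.88 to -0.34, unadjusted), the 40th lowest p of 13569 genes. With edgeR the adjusted p was 0.212, and with DESeq2 it was 0.00628. The difference was -0.49 within the lower run and -0.73 within the upper run. It rested on 395 to 486 reads per praliciguat library and 550 to 758 per placebo library.

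Nos3 overlaps, on the opposite strand, exons of Atg9b over 294 bases and of the antisense gene Gm15587 over 1040 bases, and how strand was set in counting is not stated in the labels or headers. Atg9b, an autophagy gene, had 4 to 14 reads per praliciguat library and 5 to 8 per placebo library. Gm15587 has no row in the tables, so reads from it cannot be told apart from Nos3 here.

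Endothelial markers lay lower as well. In bulk muscle, fewer endothelial cells and less RNA per endothelial cell cannot be told apart. Of 12 marker genes other than Nos3 and Cav1, 12 had a log2 fold change below 0 (median -0.33, against 0.02 over all genes). None was called by edgeR and 1, Ptprb, by DESeq2 (0.842% of all genes were called lower), and in 3 of the 12 the groups did not overlap, all lower (2.54% of all genes). The markers summed to 304 to 434 TPM with praliciguat and 418 to 552 TPM in placebo, and none was at 0. The most negative was Ptprb, a phosphatase of endothelial junctions, at -0.46 ± 0.11 (edgeR adjusted p = 0.352), followed by Tie1, an orphan receptor of endothelium, at -0.45 ± 0.12 (edgeR adjusted p = 0.391). The Nos3 value of -0.61 lay below all 12. Markers of other cells lay on both sides of 0. Macrophage markers lay higher by fold change, with a median log2 fold change of 0.893 (6 of 6 above 0), but their sums overlapped between the groups. The macrophage sums were 120, 70.5, 907 and 165 TPM in praliciguat libraries 1 to 4, with library 3 far above the rest. In placebo libraries 1 to 4 they were 143, 91.7, 273 and 123 TPM. Adipocyte markers lay higher too, with a median of 0.997 (5 of 5 above 0). Slow fibre, Schwann cell and smooth muscle markers lay lower beside the endothelial ones. Slow fibre markers had a median log2 fold change of -2.91, Schwann cell markers of -0.58 (4 of 4 below 0) and smooth muscle markers of -0.26 (5 of 5 below 0). The Schwann cell sums were 122, 100, 49.5 and 35.7 TPM in praliciguat libraries 1 to 4. In placebo libraries 1 to 4 they were 219, 108, 82.5 and 79.6 TPM. The smooth muscle sums were 206, 205, 168 and 158 TPM in praliciguat libraries 1 to 4. In placebo libraries 1 to 4 they were 389, 186, 149 and 222 TPM. Placebo library 1 was the highest in both lists, and the groups overlapped in both. None of these genes was called by edgeR, and the part of such shifts in the Nos3 level was not tested.

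Set against these markers in the same library, Nos3 was lower on average with praliciguat, without passing the test. Its log2 CPM minus the mean of the 12 markers was -1.65, -1.34, -1.62 and -0.96 in praliciguat libraries 1 to 4, against -1.26, -1.32, -1.06 and -0.70 in placebo libraries 1 to 4. The groups overlapped, since praliciguat library 4 lay above 3 of the placebo libraries. The mean was -1.39 ± 0.32 with praliciguat and -1.08 ± 0.28 in placebo (SD, n = 4 each), a difference of -0.31 (exact two-sided permutation p = 0.2, adjusted p = 0.267 over 4 values tested this way). The difference was -0.20 within the lower run and -0.42 within the upper run, and it ranged from -0.45 to -0.18 with 1 library left out.

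**Figure D2:**
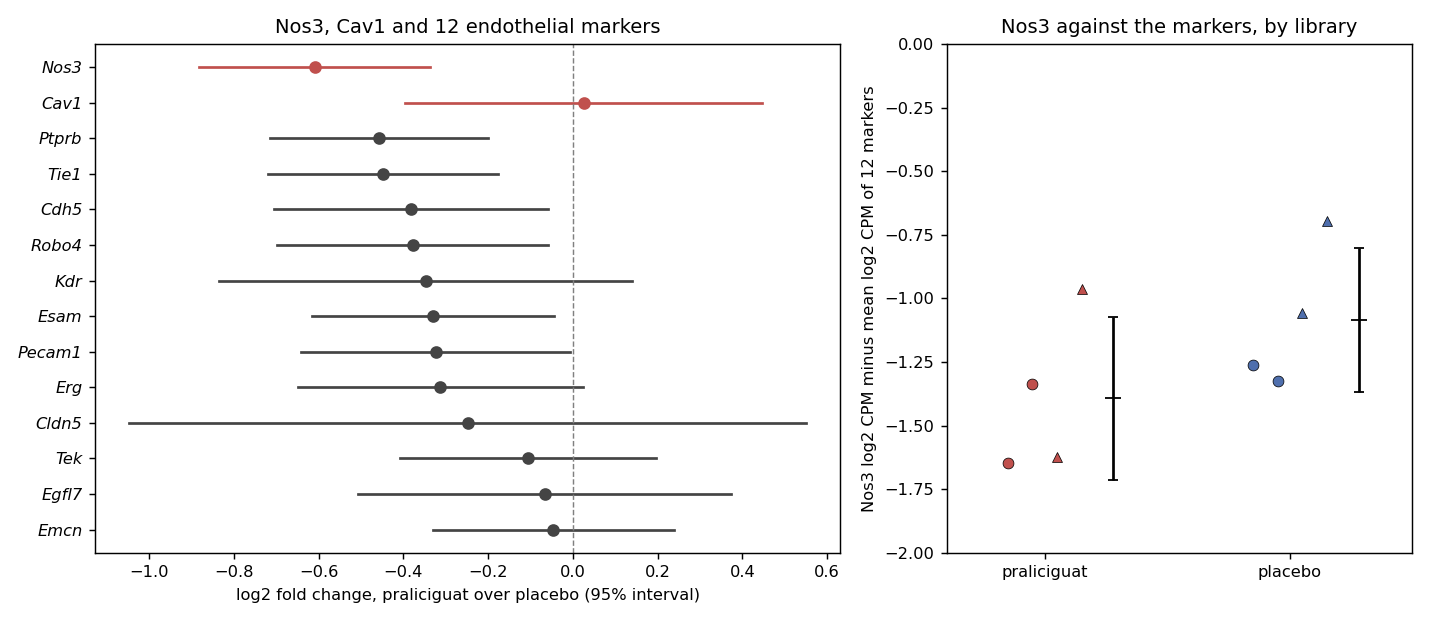
Left, log2 fold changes of Nos3, Cav1 and 12 endothelial markers with unadjusted 95% intervals from edgeR. Right, Nos3 log2 CPM minus the marker mean in each library, with the mean ± SD (n = 4) and circles and triangles for the lower and upper run: Nos3 lies left of all 12 markers, while the right panel's groups, with means of -1.39 and -1.08, overlap.

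Nos1, on chromosome 5 from 117866839 to 117958840 (plus strand), was read at 155, 194, 106 and 131 CPM in praliciguat libraries 1 to 4, against 113, 122, 106 and 204 CPM in placebo libraries 1 to 4. Placebo library 4 was the highest of all 8 and the groups overlapped. The log2 fold change was 0.10 ± 0.25 (95% interval -0.46 to 0.67; edgeR adjusted p = 0.992). It turned with the run, at 0.56 within the lower run and -0.32 within the upper run, and it was 0.37 without placebo replicate 4, -0.06 without praliciguat replicate 2 and -0.0024 without placebo replicate 3. The tables hold 1 RefSeq transcript for Nos1, so its muscle splice form cannot be separated. Its exons overlap the opposite-strand gene Gm26995 over 268 bases, and that gene has no row in the tables.

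In the dystrophin complex that holds Nos1 at the membrane, neither edgeR nor DESeq2 called a gene. Over all genes, edgeR called 0%, and DESeq2 called 0.842% lower and 0.111% higher, so this count is near the share over all genes. Of 12 genes of the complex, 7 were above 0 and 5 below, with a median log2 fold change of 0.02. Dmd, dystrophin itself, averaged 113 CPM with praliciguat and 117 CPM in placebo. The lowest p was that of Sntb1, a beta-syntrophin, at 3.49, 6.49, 4.49 and 6.14 CPM in praliciguat libraries 1 to 4, against 1.07, 3.01, 2.54 and 4.17 CPM in placebo libraries 1 to 4 (log2 fold change 0.93 ± 0.37, edgeR adjusted p = 0.779). Dtnb, a dystrobrevin, had -0.31 ± 0.20 (edgeR adjusted p = 0.984), without overlap between the groups, as in 2.54% of all genes, lower.

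Nos2, on chromosome 11 from 78920787 to 78960226 (plus strand), was read at 6.79, 7.0, 5.33 and 6.21 CPM in praliciguat libraries 1 to 4, against 8.91, 9.83, 8.54 and 5.01 CPM in placebo libraries 1 to 4. The praliciguat libraries lay below 3 placebo libraries and above placebo library 4. The log2 fold change was -0.35 ± 0.21 (95% interval -0.82 to 0.12; edgeR adjusted p = 0.975), and -0.52 without placebo replicate 4. Macrophage markers varied widely between libraries, with 6 of 6 above 0 and 0 called by edgeR. They summed to 120, 70.5, 907 and 165 TPM in praliciguat libraries 1 to 4, against 143, 91.7, 273 and 123 TPM in placebo libraries 1 to 4. The library with the highest macrophage sum, praliciguat library 3, had the second lowest Nos2 level. The part of macrophages in the Nos2 level was not tested.

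As shares of the summed synthase TPM, Nos1 took 69.3 to 76.6% with praliciguat and 57.9 to 72.0% in placebo. Nos2 took 7.22 to 9.25% with praliciguat and 4.62 to 12.9% in placebo. Nos3 took 17.8, 16.2, 20.9 and 22.1% in praliciguat libraries 1 to 4, against 30.2, 25.9, 29.8 and 23.4% in placebo libraries 1 to 4, without overlap. Its mean share was 19.2 ± 2.71% with praliciguat and 27.3 ± 3.27% in placebo (SD, n = 4 each), a difference of -8.09 percentage points. The exact two-sided permutation p was 0.0286, the smallest that 4 against 4 libraries allow, and the adjusted p over the 4 values was 0.114. The difference was -11.1 points within the lower run and -5.13 within the upper run.

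**Figure D3:**
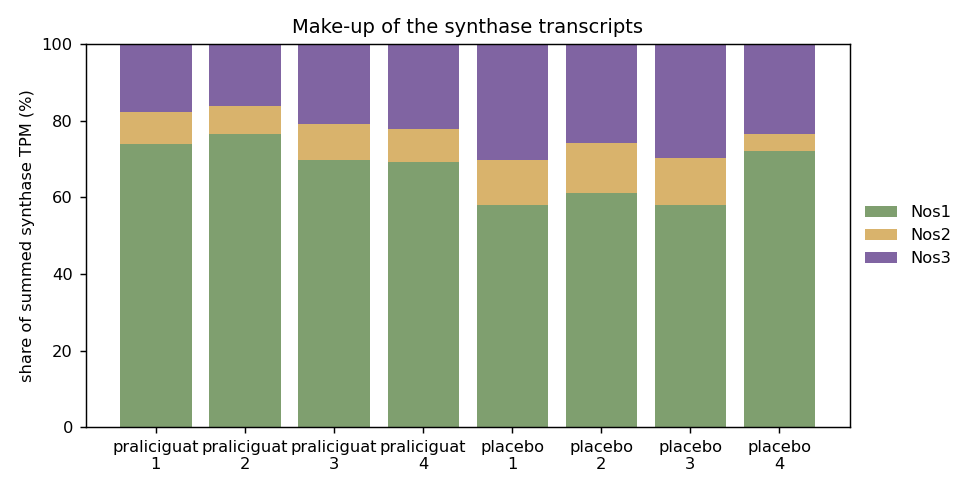
Share of Nos1, Nos2 and Nos3 in the summed synthase TPM of each library, stacked to 100%. The Nos3 segment takes 16.2 to 22.1% in the praliciguat libraries and 23.4 to 30.2% in the placebo libraries.

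Ddah1 lies on chromosome 3 from 145758692 to 145894277 (plus strand). It was read at 11.4, 23.4, 20.9 and 27.2 CPM in praliciguat libraries 1 to 4, against 7.66, 7.64, 15.3 and 14.9 CPM in placebo libraries 1 to 4. Praliciguat library 1 lay below the pair of placebo libraries of the upper run, and the other 3 praliciguat libraries lay above all 4 placebo libraries. The log2 fold change was 0.86 ± 0.33 (95% interval 0.12 to 1.61, unadjusted; edgeR adjusted p = 0.746), a 1.82-fold higher level and the most positive of the 7 genes. Within each run the praliciguat libraries all lay above the placebo libraries, with differences of 1.09 in the lower and 0.65 in the upper run. With the run as a block the adjusted p was 0.275.

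Ddah2, on chromosome 17 from 35059035 to 35062099 (plus strand), was read at 6.0, 4.28, 12.8 and 6.89 CPM in praliciguat libraries 1 to 4, against 10.1, 8.08, 8.03 and 6.24 CPM in placebo libraries 1 to 4. Praliciguat library 3 was the highest of all 8, and praliciguat library 2 the lowest. The log2 fold change was -0.11 ± 0.31 (95% interval -0.82 to 0.60; edgeR adjusted p = 0.995). It was -0.50 without praliciguat replicate 3, 0.08 without praliciguat replicate 2 and 0.02 without placebo replicate 1. The difference was -0.83 within the lower run and 0.41 within the upper run. Praliciguat library 3 is also the library with the highest macrophage marker sum, 907 TPM, and the part of those cells in its Ddah2 level was not tested.

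The ratio of Ddah2 to Ddah1 was lower on average with praliciguat. It did not pass the exact test, either before or after adjustment over the 4 values. The smallest exact p of 0.0286, where 1 value alone reaches it, becomes 0.114 after that adjustment. The log2 ratio of Ddah2 to Ddah1 TPM was 0.68, -0.84, 0.90 and -0.37 in praliciguat libraries 1 to 4, against 2.01, 1.69, 0.68 and 0.34 in placebo libraries 1 to 4. Ddah2 was the more abundant in all 4 placebo libraries and in praliciguat libraries 1 and 3. The mean ratio was 0.09 ± 0.83 with praliciguat and 1.18 ± 0.80 in placebo (SD, n = 4 each), a difference of -1.09 (exact two-sided permutation p = 0.143, adjusted p = 0.267). It was -1.93 within the lower run and -0.25 within the upper run.

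**Figure D4:**
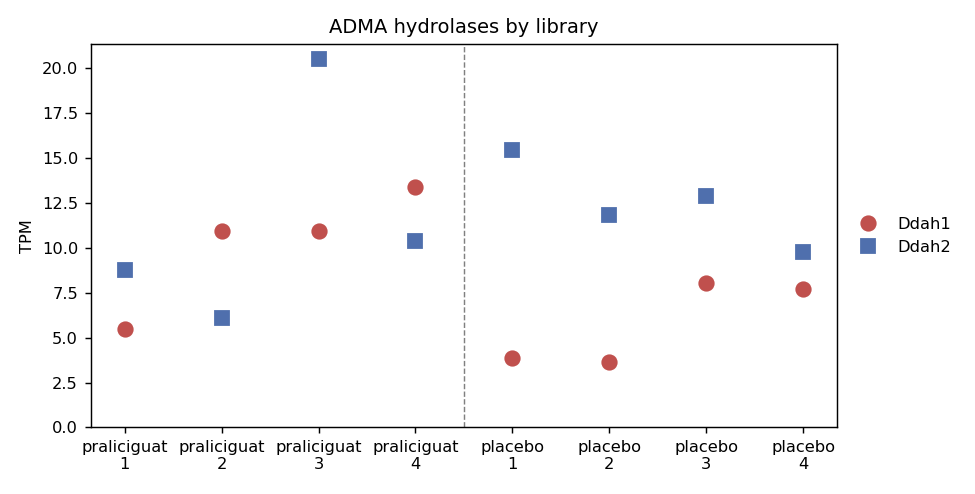
TPM of Ddah1 and Ddah2 in each library, praliciguat left of the dashed line and placebo right of it. Ddah1 runs from 5.46 to 13.4 TPM with praliciguat and from 3.65 to 8.02 TPM in placebo, and it exceeds Ddah2 in praliciguat libraries 2 and 4.

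The sequence just upstream of each hydrolase gene is shown because Ddah1 had the most positive fold change of the 7 genes and Ddah2 is its paralog. Each window is the 250 bases before the RefSeq start on GRCm38.p6, plus strand, chr3:145758442-145758691 for Ddah1 and chr17:35058785-35059034 for Ddah2. Capitals mark GC boxes (GGGCGG on either strand, the motif bound by Sp1) and E-boxes (CANNTG, the motif bound by Myod1 and related factors).
Ddah1: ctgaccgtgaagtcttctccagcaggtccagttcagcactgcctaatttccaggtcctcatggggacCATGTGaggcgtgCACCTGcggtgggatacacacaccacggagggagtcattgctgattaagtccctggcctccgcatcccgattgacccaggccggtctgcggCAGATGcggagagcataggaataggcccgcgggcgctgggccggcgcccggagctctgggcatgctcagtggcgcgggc
Ddah2: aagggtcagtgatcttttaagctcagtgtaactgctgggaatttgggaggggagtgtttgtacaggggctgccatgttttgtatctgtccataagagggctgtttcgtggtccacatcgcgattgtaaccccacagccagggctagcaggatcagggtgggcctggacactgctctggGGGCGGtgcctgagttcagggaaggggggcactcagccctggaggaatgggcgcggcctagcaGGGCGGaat
The Ddah1 window holds 3 E-boxes and 0 GC boxes, and the Ddah2 window 0 E-boxes and 2 GC boxes. Of 32851 RefSeq start windows of this length, 66.2% hold at least 1 E-box and 32.7% at least 1 GC box. The TATA box (TATAAA) was found in neither window (12.4% of all windows), and the motif CACCC, bound by Klf factors, 1 time in Ddah2 and 0 times in Ddah1 (52.0% of all windows). Both strands were searched, and in the Ddah2 window the CACCC match did not overlap a GC box. Such a match is a description of letters, not a binding site. Start windows were matched for 5 of the 7 genes, and those of Nos2 and Nos3 were not matched.

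Cav1, on chromosome 6 from 17306335 to 17341328 (plus strand), was read at 271, 273, 391 and 384 CPM in praliciguat libraries 1 to 4, against 341, 273, 417 and 266 CPM in placebo libraries 1 to 4. The groups overlapped over nearly their whole range. The log2 fold change was 0.03 ± 0.19 (95% interval -0.40 to 0.45; edgeR adjusted p = 0.996), and it lay between -0.06 and 0.16 with 1 library left out. The Cav1 value lay above those of all 12 endothelial markers, of which the highest was Emcn at -0.05, and this contrast was not tested. Caveolin-1 is abundant in fat cells too. Adipocyte markers, with 5 of 5 above 0 and 0 called by edgeR, summed to 359, 302, 963 and 916 TPM in praliciguat libraries 1 to 4, against 196, 176, 770 and 179 TPM in placebo libraries 1 to 4. The 3 libraries with the highest Cav1 levels, praliciguat 3 and 4 and placebo 3, were those with the highest adipocyte sums, and the part of fat cells in the Cav1 level was not tested.

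Cav3, also on chromosome 6, from 112459505 to 112472872 (plus strand), was read at 42.9, 50.3, 58.6 and 57.7 CPM in praliciguat libraries 1 to 4, against 45.2, 54.1, 48.4 and 44.5 CPM in placebo libraries 1 to 4. The praliciguat libraries held both the lowest and the highest value. The log2 fold change was 0.12 ± 0.12 (95% interval -0.14 to 0.39; edgeR adjusted p = 0.984), the narrowest interval of the 7 genes. The log2 ratio of Cav3 to Cav1 TPM averaged -1.37 ± 0.14 with praliciguat and -1.46 ± 0.34 in placebo (SD, n = 4 each), a difference of 0.09 (exact two-sided permutation p = 0.657, adjusted p = 0.657).

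Of 8 further genes of caveolae, 5 were above 0 and 3 below (median log2 fold change 0.02), and none was called by edgeR or DESeq2. Over all genes, edgeR called 0%, and DESeq2 called 0.842% lower and 0.111% higher. Cavin2, a coat protein of caveolae, had the lowest p with -0.09 ± 0.12 (edgeR adjusted p = 0.984). Pacsin3, a membrane-bending protein of muscle, had 0.09 ± 0.12 (edgeR adjusted p = 0.984).

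**Figure D5:**
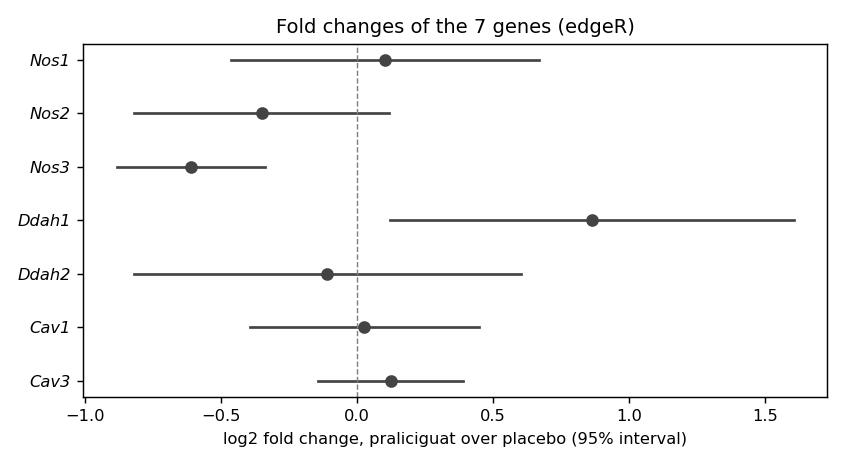
Log2 fold change of each gene, praliciguat over placebo, with its unadjusted 95% interval from edgeR. The intervals of Nos3 (-0.88 to -0.34) and Ddah1 (0.12 to 1.61) lie to either side of 0 and the other 5 span it.

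None of the genes that supply the synthases with substrate and cofactor was called by edgeR, which called 0% of all genes. Slc7a1, the arginine transporter found in most cells, had 7.69, 5.17, 5.95 and 5.71 CPM in praliciguat libraries 1 to 4, against 8.82, 9.80, 9.61 and 11.8 CPM in placebo libraries 1 to 4. Its groups did not overlap and its log2 fold change was -0.71 ± 0.16 (edgeR adjusted p = 0.294, DESeq2 adjusted p = 0.0141). It was the 1 gene of its list called by DESeq2, which called 0.842% of all genes lower. In 2.54% of all genes the groups did not overlap and praliciguat was lower. Of the 6 listed genes of arginine uptake, recycling and breakdown, 4 were tested, with 3 above 0. Ass1, which recycles citrulline to arginine, had 0.57 ± 0.49 (edgeR adjusted p = 0.984), and Arg1 and Arg2, the arginases, had at most 10 and 2 reads in any library. Of 7 genes of the cofactor tetrahydrobiopterin, 6 were tested and 5 lay below 0 (median -0.12). Gch1, its rate-limiting enzyme, had 3.58 to 3.96 CPM with praliciguat and 4.11 to 4.79 CPM in placebo, without overlap (log2 fold change -0.24 ± 0.14, edgeR adjusted p = 0.970). Qdpr, which regenerates the cofactor, had -0.16 ± 0.09 (edgeR adjusted p = 0.963).

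On the side of ADMA, 5 of 7 listed genes were tested, 4 above 0 and 1 below. Their median log2 fold change was 0.0042, against 0.02 over all genes tested. Prmt1, the main enzyme that forms asymmetric dimethylarginine in proteins, was at 69.7 CPM with praliciguat and 69.5 CPM in placebo. Carm1, another methyltransferase of this type, was at 99.7 to 107 CPM with praliciguat and 83.2 to 99.6 CPM in placebo. Its groups did not overlap by a small margin, as in 1.32% of all genes, higher. Its log2 fold change was 0.23 ± 0.09 (edgeR adjusted p = 0.745). Prmt2 had -0.11 ± 0.22 (edgeR adjusted p = 0.989). Agxt2, a mitochondrial enzyme that also breaks down ADMA, had at most 2 reads in a library.

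Of 10 genes whose proteins bind or phosphorylate synthases, 4 lay above 0 and 6 below (median -0.07), and none was called by edgeR or DESeq2. Over all genes, edgeR called 0%, DESeq2 called 0.842% lower and 0.111% higher, and 2.54% did not overlap and were lower. Nos1ap, an adaptor that competes for the PDZ domain of Nos1, was low, at 0.483 CPM with praliciguat and 0.788 CPM in placebo on average, without overlap (log2 fold change -0.70 ± 0.31, edgeR adjusted p = 0.859). Hsp90aa1, a chaperone that binds Nos3, had -0.25 ± 0.14 (edgeR adjusted p = 0.961). Of 6 transcription factors known to drive Nos3 or Nos2, 4 lay above 0 (median 0.09). Klf2, the flow-responsive factor known to raise Nos3, was at 77.1, 66.0, 42.1 and 64.1 CPM in praliciguat libraries 1 to 4, against 61.9, 44.2, 45.5 and 45.6 CPM in placebo libraries 1 to 4 (log2 fold change 0.34 ± 0.19, edgeR adjusted p = 0.961). Of 3 proteins that remove nitric oxide or S-nitrosoglutathione, none was called by edgeR or DESeq2. Mb, myoglobin, had -0.25 ± 0.26 (edgeR adjusted p = 0.984), and Cygb, cytoglobin, had 0.19 ± 0.34 (edgeR adjusted p = 0.987).

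For each gene, the closest patterns across the 8 libraries were found as the smallest root mean square difference of centred log2 CPM. Nos3 was closest to Klhl23 (0.09) and Kif26b (0.12), and Nos1 to Slc8a1, the sodium-calcium exchanger (0.09), and Tarbp1 (0.10). Cav1 was closest to Cyb5r3 (0.07) and to Ehd2, an ATPase of the caveola neck (0.09). Ehd2 had 90.0, 78.7, 137 and 117 CPM in praliciguat libraries 1 to 4, against 103, 89.8, 134 and 89.5 CPM in placebo libraries 1 to 4, with the same 3 libraries highest as for Cav1. Ddah1 had the largest distances, to Myod1 (0.28), the myogenic factor, and Gatsl2 (0.32). Its own SD of log2 CPM, 0.69, was also the largest of the 7 genes (0.35 for Nos2), and such distances grow with that spread. Bmp1 was among the genes closest to Ddah2 (0.10), Cav3 was closest to Ppp1ca (0.05) and Emc10 (0.06), and Nos2 to Galnt18 (0.14) and Nap1l3 (0.15). These distances describe the 8 libraries and were not tested.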

How the data were processed

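Libraries were prepared from Tri Reagent RNA with a kit for stranded mRNA, per the labels' protocols. Build mm10 and the tools RSEM 1.2.28, STAR 2.5.3a, Trimmomatic and FastQC are listed in the submitters' processing notes. The authors deposited 1 table per library with expected counts, TPM, FPKM and gene lengths, per the file headers. The deposited FPKM values were not used. Deposited lengths entered 1 alternative as an offset. Groups came from the labels and replicates were numbered in accession order. Pairs of libraries within a group differed by more than sampling noise (chi-square per degree of freedom 21.9 to 136).

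After rounding, expected counts were tested with edgeR 4.0.16 under R 4.3.3, using TMM scaling, filterByExpr and the robust quasi-likelihood F test, with group as the only term. The SE is the log2 fold change divided by the root of F. DESeq2 1.42.0, limma 3.58.1, other scalings, filters and pseudocounts, the run as a block and each library left out were alternatives. The test was also run on simulated counts as a check. Single values were compared by exact permutation over 70 groupings. The 7 genes, the lists and the naming rule (all 7 genes, the 2 genes of lowest p per pathway list unless any passed, and the 2 nearest patterns per gene) were chosen with earlier results of these data known. Ptprb, Tie1, Emcn, Myh1, Myh2, Dmd, Prmt1, the genes overlapping others and the genes with few reads were named after their values were seen. A few genes that the naming rule gives are not reported here.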

Additional observations from a re-analysis of the deposited data

Results flagged for a closer look

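Nos1 in placebo replicate 4, at 204 CPM, stood apart from the other 3 placebo libraries, which lay at 106 to 122 CPM. Its gap to the nearest of them was 0.835 of the group's range, above the 95% critical value of Dixon's test for 4 libraries. Among the 22 sets of 4 values looked at in this way it was the 1 that passed, and chance flags about 1 in 20 groups. Without this library the Nos1 log2 fold change was 0.37, against 0.10 with all 8 libraries.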

How the results depend on the processing

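With edgeR, 0 of the 7 genes passed under any scaling, filter, block or left-out library tried, and DESeq2 called 1 lower (Nos3). Over all genes, the calls higher and lower were 15 and 114 with DESeq2, 0 and 2 with limma-voom, 0 and 3 with the run as a block, and 0 and 11 at an adjusted p under 0.1. With 1 library left out there were 0 higher and 0 to 5 lower, the 5 without placebo replicate 3. Without praliciguat replicates 3 and 4, an alternative chosen after seeing the data, there were 6 and 79, and Cav1 had -0.25 and Cav3 -0.043, both of opposite sign to the values from all libraries. With limma on TPM, Cav1 was at -0.013 with either pseudocount. Nos3 ranged from -0.66 to -0.53 with 1 library left out (edgeR adjusted p from 0.148 to 0.650), and was -0.56 without praliciguat replicates 3 and 4. Other ranges with 1 library left out were -0.062 to 0.37 for Nos1, -0.52 to -0.24 for Nos2, 0.71 to 1.06 for Ddah1, -0.50 to 0.084 for Ddah2, -0.064 to 0.16 for Cav1 and 0.07 to 0.21 for Cav3. The Nos3 share differed by -9.41 to -7.09 points, the hydrolase ratio by -1.37 to -0.78, the caveolin ratio by -0.032 to 0.23 and Nos3 against the endothelial markers by -0.45 to -0.18. Within the lower and upper run the hydrolase ratio differed by -1.93 and -0.25. The cause of these shifts was not tested. With 3 libraries against 4 the exact test cannot go below 0.0571. No paired analysis was possible because the labels give the groups no shared replicate numbers; with the run as a replicate block, Nos3 had -0.61 and Ddah1 0.92.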
